A study of Homo sapiens and Mus musculus with 16 samples.

Results

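Long noncoding RNA (lncRNA) promoters were taken as accessible regions of HPAF-II cells whose nearest edge lay within 1 kb of an annotated start site of a lncRNA gene and 5 kb to 200 kb from the nearest start site of a protein-coding gene, in GENCODE release 44 on hg38. The limit of 5 kb set them apart from promoters that a lncRNA shares with a coding neighbor. The rule found 3515 of the 118107 regions of the control (Cas9) list (2.98%) and 3047 of the 97047 regions of the HNF4G-KO list (3.14%). HPAF-II is an established human pancreatic adenocarcinoma cell line. The control (Cas9) cells have the genotype WT and received CRISPR-Cas9, and the HNF4G-KO cells were made with guides against exons of HNF4G, which encodes a nuclear receptor. Each group had 4 replicates measured by Omni-ATAC-seq, in which a transposase cuts accessible DNA, and each was represented by 1 list of regions. The study's methods describe knockout clones that were combined into a clonal pool, and also clones with heterozygous frameshifts that served in later experiments, and which of these gave the ATAC-seq replicates is not given in the sources used here. Neither the spread between replicates nor the sequencing depth behind a list is known, so no difference below has a replicate check. Wilson, Newcombe and order-statistic 95% intervals cover counting error over regions only.

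The list of 12 epithelial and ductal marker genes was accessible at a start site in 11 cases in both lists, and their highest regions lay between percentiles 54.2 and 95.6 of the control list. Of 12 marker genes of other cells, 5 had a region at a start site in each list, among them PDGFRB and COL1A2 at percentiles 82.4 and 62.8 of the control list, whereas PTPRC, CD3E, PECAM1, CDH5, INS and GCG had none in either list. Accessibility at HNF4G itself cannot check the knockout, because a region list holds no allele. HNF4G had 2 regions at its start sites in both lists, the stronger at percentile 82.4 in control and 82.7 in HNF4G-KO.

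A lncRNA is a transcript, longer than the small RNA classes, that is not translated into a protein. Many lncRNAs act in the nucleus, as scaffolds for protein complexes or through the act of their own transcription near a neighboring gene, and others host microRNAs or small nucleolar RNAs that are cut out of the transcript. Their promoters often lack the CpG islands of housekeeping coding genes and are active in fewer cell types. HNF4G belongs, with HNF4A, to the HNF4 family of nuclear receptors of the gut, liver and pancreas.

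The sequence of lncRNA promoters ranged from CpG islands to DNA with no CpG, and a pair of start-site windows is shown because CpG content divided the regions that follow. Each window runs from 250 bases before to 50 bases after a start site, 5′ to 3′ on the strand of the gene, with each CpG in capitals. DANCR (chr4:52712204-52712503, plus strand), the host of a small nucleolar RNA, had 31 CpG and a GC content of 72.3%. LINC01559 (chr12:13376662-13376961, minus strand) had 0 CpG and a GC content of 43.7%, and its region nevertheless lay at percentile 94.4 of the control list and 92.3 of the HNF4G-KO list. The DANCR region stood at percentile 98.9 in control and 99.3 in HNF4G-KO.
DANCR: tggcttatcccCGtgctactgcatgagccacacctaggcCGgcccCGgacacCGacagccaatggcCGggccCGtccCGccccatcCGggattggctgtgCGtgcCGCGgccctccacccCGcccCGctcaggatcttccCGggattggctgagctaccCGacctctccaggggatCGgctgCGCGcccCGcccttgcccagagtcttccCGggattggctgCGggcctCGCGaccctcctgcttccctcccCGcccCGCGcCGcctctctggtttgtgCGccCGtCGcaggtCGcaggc
LINC01559: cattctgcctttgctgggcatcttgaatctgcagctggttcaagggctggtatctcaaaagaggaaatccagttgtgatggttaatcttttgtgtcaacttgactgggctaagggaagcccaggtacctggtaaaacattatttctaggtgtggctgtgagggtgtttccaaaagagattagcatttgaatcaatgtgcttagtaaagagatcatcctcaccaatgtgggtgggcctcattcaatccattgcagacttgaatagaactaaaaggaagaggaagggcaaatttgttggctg

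Matches to transcription factor consensus sequences are shown in 4 further windows, which stand for the AP-1 consensus, the most frequent of those searched, and for the consensus of the HNF4 family. In the HNF4A-AS1 window (chr20:44384622-44384921, minus strand) the capitals mark a pair of abutting AP-1 matches, TGAGTCA at -170 and TGACTCA at -163 from the start site. In the ENSG00000255375 window (chr11:32136658-32136957, plus strand) they mark TGAGTCA at -48, and 133 of the 300 bases lay in the region. In the ENSG00000288974 window (chr20:22524086-22524385, minus strand), whose nearest coding start site is that of FOXA2, they mark the HNF4 consensus CAAAGTCCA at -118. In the LINC02453 window (chr12:98491037-98491336, minus strand) they mark the same consensus on the other strand, TGGACTTTG at -134. A match is a description and not a site of binding.
HNF4A-AS1: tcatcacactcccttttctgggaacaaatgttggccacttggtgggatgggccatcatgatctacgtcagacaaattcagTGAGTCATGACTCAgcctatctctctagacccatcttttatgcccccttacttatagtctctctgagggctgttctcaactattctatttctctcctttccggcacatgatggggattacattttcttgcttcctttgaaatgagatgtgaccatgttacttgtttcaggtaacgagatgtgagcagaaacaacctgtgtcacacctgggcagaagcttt
ENSG00000255375: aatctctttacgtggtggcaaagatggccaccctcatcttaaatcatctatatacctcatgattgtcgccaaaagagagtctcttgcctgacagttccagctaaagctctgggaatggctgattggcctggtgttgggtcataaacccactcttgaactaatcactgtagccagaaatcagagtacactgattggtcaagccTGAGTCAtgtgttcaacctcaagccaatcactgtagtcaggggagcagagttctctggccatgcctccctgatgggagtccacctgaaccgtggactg
ENSG00000288974: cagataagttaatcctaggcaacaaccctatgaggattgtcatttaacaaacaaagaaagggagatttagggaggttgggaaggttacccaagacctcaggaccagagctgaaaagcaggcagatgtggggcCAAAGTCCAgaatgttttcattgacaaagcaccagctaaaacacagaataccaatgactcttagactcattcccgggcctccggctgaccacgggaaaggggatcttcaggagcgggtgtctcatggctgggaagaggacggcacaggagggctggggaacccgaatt
LINC02453: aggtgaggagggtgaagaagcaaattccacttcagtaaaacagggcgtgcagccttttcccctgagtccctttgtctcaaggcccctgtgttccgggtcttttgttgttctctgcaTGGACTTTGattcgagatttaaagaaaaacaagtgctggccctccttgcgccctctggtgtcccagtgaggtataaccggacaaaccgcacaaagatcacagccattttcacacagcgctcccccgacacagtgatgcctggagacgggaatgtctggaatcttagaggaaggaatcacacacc

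The first comparison asked how often lncRNA promoters were listed in only 1 of the HPAF-II lists, with an overlap of 1 bp counted as shared. A total of 657 of 3515 control lncRNA promoters (18.7%, 95% interval 17.4 to 20.01) overlapped no HNF4G-KO region and were called control-only, beside 25.0% of all control regions. Protein-coding promoters, which are regions within 1 kb of a protein-coding start site, were control-only in 2763 of 22499 cases (12.3%, 11.9 to 12.7). Other regions at the same distance from coding genes, with no annotated start site within 1 kb, were control-only in 27.7% of 66720 cases (27.4 to 28.1). LncRNA promoters thus lay between these sets, 6.41 percentage points above protein-coding promoters (5.08 to 7.80) and 9.03 points below the other distal regions (difference -9.03, -10.3 to -7.66).

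In the other direction, 140 of 3047 HNF4G-KO lncRNA promoters (4.60%, 3.91 to 5.40) overlapped no control region and were called KO-only, beside 6.76% of all HNF4G-KO regions. Protein-coding promoters were KO-only in 3.77% of 20777 cases (3.52 to 4.04), which is 0.821 points lower than lncRNA promoters (0.0831 to 1.66). Other distal regions were KO-only in 7.90% of 53551 cases. The 2 lists differ in length, and a list with more weak regions will hold more regions that the other lacks, so the level of control-only and KO-only shares cannot be set side by side as gain and loss. In lists cut to equal size by score, 9.09% of lncRNA promoters were control-only and 7.46% KO-only, and lncRNA promoters lay 3.61 points above protein-coding promoters in the control-only share (2.55 to 4.77) and 0.157 points above them in the KO-only share (-0.829 to 1.24). In bulk samples, a region open in fewer cells and a region less open in each cell cannot be told apart.

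The sharing of lncRNA promoters followed their score rank. The authors' score has no stated scale and entered only as a percentile within its own list, from the weakest region at 0 to the strongest at 100. The median lncRNA promoter lay at percentile 61.7 of the control list (60.4 to 63.4, n = 3515 regions), with quartiles at 32.1 and 82.5, against a median of 69.8 for protein-coding promoters (69.3 to 70.6) and 45.8 for other distal regions. In the HNF4G-KO list the medians were 60.5, 71.4 and 44.7 in the same order. LncRNA promoters had a median width of 584 bp in control, between 800 bp for protein-coding promoters and 416 bp for other distal regions. The strongest decile of the control list held 14.5% of lncRNA promoters (510 regions) and 21.3% of protein-coding promoters.

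**Figure D1:**
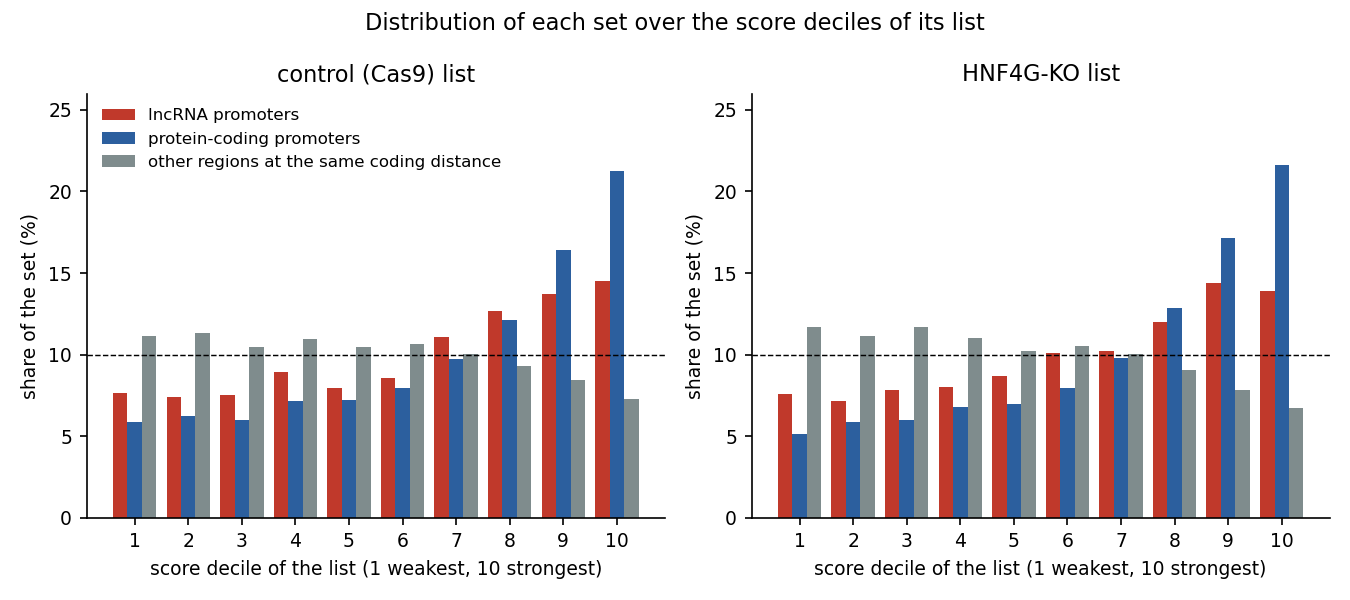
Share of each set of regions (%) in each score decile of its own list, from 1 (weakest) to 10 (strongest), for the control (Cas9) list on the left and the HNF4G-KO list on the right; the dashed line marks 10%. LncRNA promoters (red) rise toward the strong deciles and reach 14.5% in decile 10 of the control list, less steeply than protein-coding promoters (blue, 21.3%), whereas other distal regions (gray) lie toward the weak deciles.

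Control-only lncRNA promoters were weak and narrow, with a median percentile of 17.9 and a median width of 268 bp, whereas shared ones had a median percentile of 70.2 and a median width of 686 bp. Control-only regions of the other sets were much the same. The medians were percentile 16.6 and 262 bp for protein-coding promoters, and 17.9 and 262 bp for other distal regions. In the weakest decile of the control list 78.8% of lncRNA promoters were control-only, and the share fell with each decile to 34.7% in decile 4, 3.99% in decile 6 and 0.196% in decile 10. Over all control regions the shares in these deciles were 75.5%, 35.1%, 6.95% and 0.0254%, in the same order. KO-only lncRNA promoters were weaker still, with a median percentile of 8.54 and a median width of 237.5 bp. The KO-only medians were 14.2 and 239 bp for protein-coding promoters, and 10.5 and 234 bp for other distal regions. Of lncRNA promoters in the weakest decile of the HNF4G-KO list 31.17% were KO-only, beside 31.15% of all regions there. In decile 5 the shares were 1.89% and 1.45%. No KO-only lncRNA promoter was found in deciles 6 to 10, where a count of 0 allows shares of up to 0.974% to 0.683% per decile.

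Within score deciles, the control-only share of lncRNA promoters was still above that of protein-coding promoters, by 3.53 points when weighted to the deciles of lncRNA promoters (2.48 to 4.57). The gap lay mainly in weak regions. In the lower 3 deciles 61.6% of lncRNA promoters and 51.4% of protein-coding promoters were control-only, a difference of 10.2 points (6.43 to 13.9). In the middle 4 deciles the shares were 12.9% and 9.19%, and in the upper 3 deciles only 3 of 1438 lncRNA promoters (0.209%) and 4 of 11205 protein-coding promoters (0.0357%) were control-only. Against other distal regions, the difference shrank from -9.03 to -1.13 points within deciles (-2.11 to -0.149). For KO-only shares, the difference from protein-coding promoters changed sign within deciles, to -0.448 points (-1.19 to 0.297), an interval that holds 0.

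**Figure D2:**
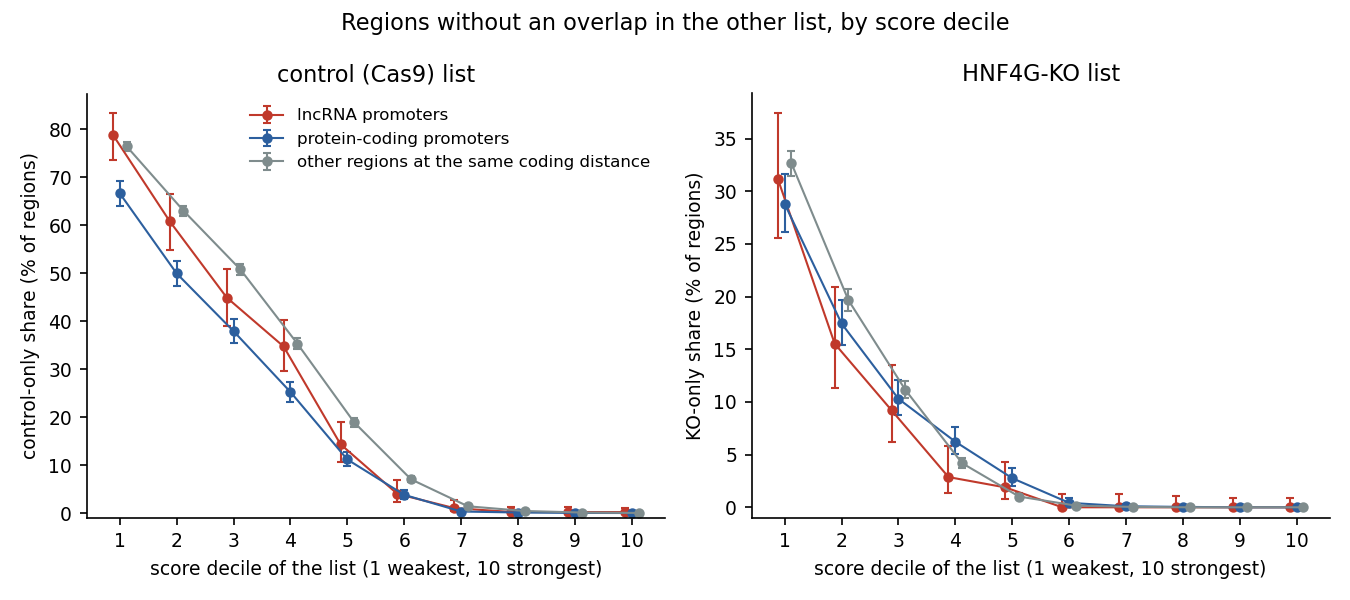
Share of regions (%) with no overlap in the other list by score decile of the list (1 weakest, 10 strongest), control-only on the left and KO-only on the right, with Wilson 95% intervals. LncRNA promoters (red) fall from 78.8% control-only in decile 1 to 0.196% in decile 10 and lie above protein-coding promoters (blue) in the weak deciles of the control list; the KO-only curves of both sets of promoters fall from about the same level.

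The position of the start site divided lncRNA promoters further. In 1943 of the 3515 control regions an annotated lncRNA start site lay inside the accessible region, and 10.7% of these were control-only at a median percentile of 74.3. In the other 1572 the start site lay outside, up to 1 kb away, and 28.6% were control-only at a median percentile of 41.6. Protein-coding promoters showed the same order, with 4.94% of 15215 regions control-only where a start site lay inside and 27.6% of 7284 where it lay outside. Members just inside the limit of 1 kb, over 500 bp from the start site, were control-only in 28.4% of 700 cases, and regions just outside it, up to 1500 bp away, in 29.5% of 685 cases. At the other limit, lncRNA promoters 5 kb to 6 kb from a coding start site were control-only in 16.2% of 117 cases and regions at 4 kb to 5 kb in 17.8% of 118 cases.

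LncRNA and protein-coding promoters were control-only about equally often within a class of CpG content when each region was counted. A window was called CpG-rich where its GC content was at least 50% and its observed over expected CpG ratio at least 0.6, a class chosen after the data had been seen. Of control lncRNA promoters 20.9% (19.6 to 22.3, 736 regions) were CpG-rich, like the DANCR window above, against 59.1% of protein-coding promoters. The annotation as a whole had similar shares, with 21.1% of 18864 windows at the 5′ ends of lncRNA genes and 55.2% of 20033 at those of protein-coding genes. Shared lncRNA promoters were CpG-rich in 23.8% of cases and control-only ones in 8.52% (6.62 to 10.9), and the median GC content was 52.0% and 48.3% in the same order.

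CpG-rich lncRNA promoters were control-only in 7.61% of 736 cases (5.91 to 9.75) and CpG-rich protein-coding promoters in 6.41%, a difference of 1.199 points (-0.557 to 3.38). CpG-poor lncRNA promoters were control-only in 21.6% of 2779 cases (20.1 to 23.2) and CpG-poor protein-coding promoters in 20.8%, a difference of 0.871 points (-0.841 to 2.64). Weighted to the CpG classes of lncRNA promoters, the difference between the kinds of promoter was 0.939 points (-0.497 to 2.38), and within CpG class and score decile together it was 1.32 points (0.248 to 2.40). The score ranks were also alike within a class, with median percentiles of 75.7 for lncRNA and 78.7 for protein-coding promoters that were CpG-rich, and of 57.4 and 55.0 for those that were CpG-poor. By place of the start site the shares of lncRNA and protein-coding promoters had overlapping intervals in each class. With the start site inside the region, 1.96% of 562 lncRNA and 1.51% of 10472 protein-coding promoters were control-only where CpG-rich, and 14.2% of 1381 and 12.5% of 4743 where CpG-poor. With the start site outside, the shares were 25.9% of 174 and 24.6% of 2820 where CpG-rich, and 29.0% of 1398 and 29.5% of 4464 where CpG-poor.

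The near equality did not hold per gene. With only the strongest region of each gene, CpG-rich lncRNA promoters were control-only in 5.52% of cases (3.98 to 7.61) and CpG-rich protein-coding promoters in 1.75% (1.50 to 2.03), and CpG-poor ones in 19.8% (18.2 to 21.4) and 11.6% (10.6 to 12.6). Over both classes the difference by gene was 11.9 points.

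Kinds of lncRNA, assigned by gene symbol, differed less than these classes did. Intergenic lncRNAs with a LINC symbol were control-only in 18.7% of 727 regions, and genes without a symbol in 18.7% of 2020. Antisense and overlapping transcripts were control-only in 23.6% of 351 regions (19.5 to 28.4), microRNA hosts in 15.2% of 46 and divergent transcripts in 14.3% of 35. Genes with an SNHG symbol, which host small nucleolar RNAs that guide the modification of other RNAs, had the lowest share, 9.52% of 21 regions, with a wide interval (2.65 to 28.9). Hosts with another symbol, such as DANCR, were not in this class. Regions outside coding genes were control-only in 17.4% of 2861 cases (16.1 to 18.8), those inside a coding gene on the other strand in 23.3% of 484 (19.8 to 27.3), and those inside a coding gene on the same strand in 27.1% of 170 (20.9 to 34.2). By distance from the nearest coding start site, the share was 18.0% at 5 kb to 20 kb, 16.9% at 20 kb to 50 kb, 19.6% at 50 kb to 100 kb and 22.2% at 100 kb to 200 kb (19.02 to 25.8).

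**Figure D3:**
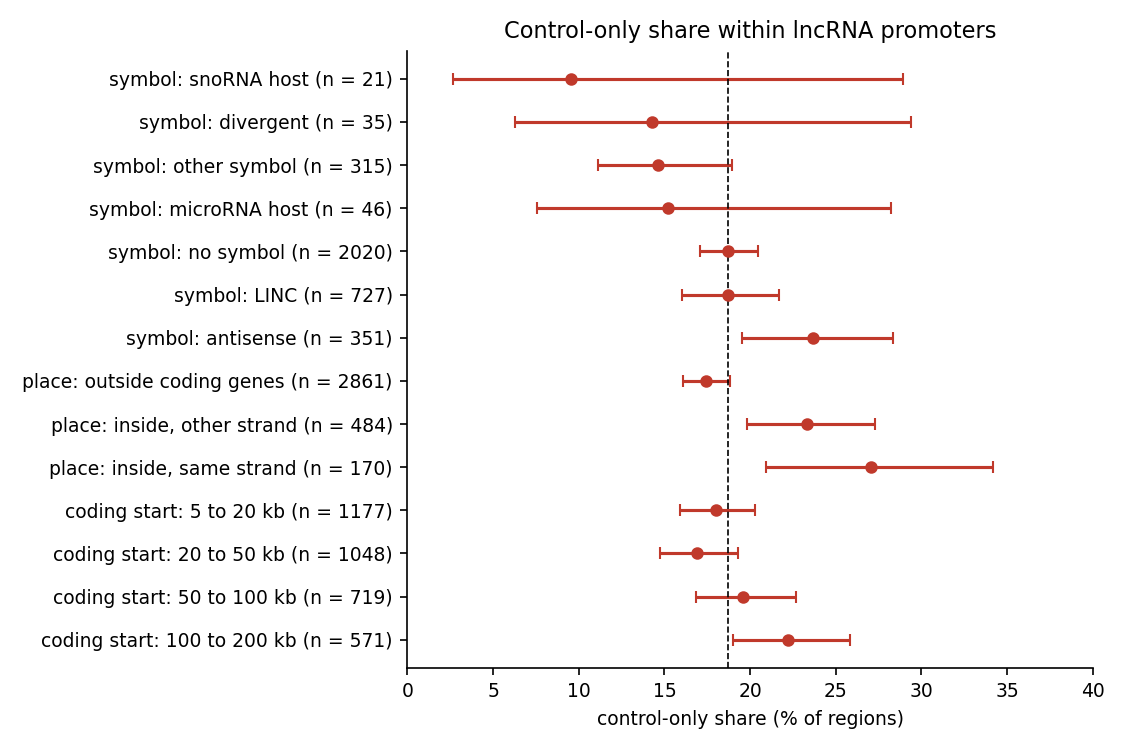
Control-only share (% of regions, with Wilson 95% intervals) of lncRNA promoters by the kind of symbol, the place relative to protein-coding genes and the distance to the nearest coding start site; the dashed line marks the 18.7% of lncRNA promoters as a whole. Most intervals cross the line, and regions inside coding genes lie to its right.

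By the region center, 1090 control lncRNA promoters (31.0%) lay in an exon of a lncRNA gene, 1109 (31.6%) in an intron of one, 439 (12.5%) in an intron of a protein-coding gene, 48 (1.37%) in a UTR of one and 819 (23.3%) outside both kinds of gene. Those centered in a coding intron were control-only in 23.2% of cases and those in a lncRNA exon in 16.3%. Chromosomes ranged from 11.7% control-only on chr14 to 28.2% on chr2 (23.3 to 33.7, n = 280), whereas protein-coding promoters of chr2 were control-only in 12.6% of cases.

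By gene, 3070 of 10598 lncRNA genes with a start site 5 kb to 200 kb from coding start sites (29.0%) had an accessible promoter in control and 2677 (25.3%) in HNF4G-KO. Counted over any start site, 2591 genes had a lncRNA promoter in both lists, 488 in control only and 93 in HNF4G-KO only. These counts follow membership under the rule and not overlap, and the control list is longer. By overlap, all regions were control-only for 472 of 3079 genes in control and KO-only for 104 of 2684 in HNF4G-KO. Of all regions, 25.0% were control-only and 6.76% KO-only, and no share over protein-coding genes is available here. Most had a single region, with 2510 genes having 1, 464 having 2 and 105 having 3 or more in the control list. LINC00511, a lncRNA described in several carcinomas, had the most regions, 10 in control of which 3 were control-only. CASC19 had 9 with 4 control-only, and HRG-AS1 had 7 with 2 control-only. LINC01588, LASTR and DRAIC had 7, 6 and 5 regions in control with 0 control-only, and no gene among the 8 with most regions had a KO-only region.

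The strongest lncRNA promoters hardly changed place. RDH10-AS1 stood at percentile 99.93 in control and 99.89 in HNF4G-KO. ENSG00000262202 (chr17:19111136-19112625) stood at 99.93 and 99.65, LINC02779 (chr1:220486950-220487867) at 99.92 and 99.82, and LINC01504 (chr9:72304989-72305879) at 99.92 and 99.45. FIRRE (chrX:131830334-131831229), a lncRNA of the X chromosome that takes part in nuclear organization, stood at 99.78 and 96.71, the largest step down among the 10 strongest control genes, followed by ENSG00000264116 from 99.82 to 98.08. The strongest lncRNA promoter of the HNF4G-KO list was ENSG00000278095 (chr12:26274083-26275288), at 99.98 against 99.60 in control, and the next was HRG-AS1, at 99.96 against 99.57. RDH10-AS1, PCGF3-AS1 and ENSG00000291177 were among the 10 strongest of both lists.

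Among control-only lncRNA promoters, the top 2 by score were slivers, ENSG00000223751 with a region of 45 bp at percentile 93.4 and LINC00910 with 4 bp at 89.9, and these were the only lncRNA promoters under 100 bp. The others lay lower. KCNMB2-AS1, with a region of 641 bp, antisense to a potassium channel subunit gene, stood at percentile 72.6, and the nearest HNF4G-KO region was 111214 bp away. ENSG00000272397 (chr6:146950335-146950918) stood at 69.3 with the nearest HNF4G-KO region 35294 bp away, and ENSG00000237070 (chr7:15667798-15668357) stood at 63.4, on the other strand within a coding gene and 18326 bp from the start site of MEOX2, a homeobox gene. ENSG00000222000 (chr2:98334015-98334817) stood at 61.5. For ENSG00000251320 at 60.9 and LINC-PINT at 59.7, a lncRNA induced by p53, HNF4G-KO regions lay as near as 397 bp and 269 bp.

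KO-only lncRNA promoters began lower in their list. The highest were ENSG00000254777 at percentile 45.9 of the HNF4G-KO list, LINC01444 (chr18:14970141-14970438) and ENSG00000289637 at 41.6 each, and ENSG00000224000 and LINC01561 at 41.2 each. MIRLET7BHG (chr22:46070968-46071701), the host gene of let-7 family microRNAs, stood at 39.99 with a control region 79 bp away, and LINC00840 and ENSG00000243885 followed at 39.4 and 36.8. None of the 8 reached the middle of the list.

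Among the 2858 shared lncRNA promoters, rank was compared as the percentile among shared regions, each control region paired with the HNF4G-KO region it overlapped the most. The median change was 0.315 points (-0.0102 to 0.617), with quartiles at -5.84 and 6.47, and 1380 regions (48.3%) moved down. A total of 164 regions (5.74%, 4.94 to 6.65) fell by over 20 points, beside 6.89% of all shared regions, and 136 (4.76%, 4.04 to 5.60) rose by over 20 points, beside 6.23% of all shared regions. LncRNA promoters therefore moved by over 20 points slightly less often than all shared regions, in both directions. A change in points is on this scale of shared regions throughout, whereas the percentiles printed for a region are those of its whole list. The scales can differ in direction for small changes, because the control list holds more regions that the other lacks. Protein-coding promoters had a median change of 1.74 points, with 2.53% falling and 9.06% rising past 20 points, and other distal regions had a median of -0.773 points, with 8.01% falling and 5.48% rising. The ranks of shared lncRNA promoters correlated between the lists with Spearman's rho of 0.907 over regions of the same cell line.

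**Figure D4:**
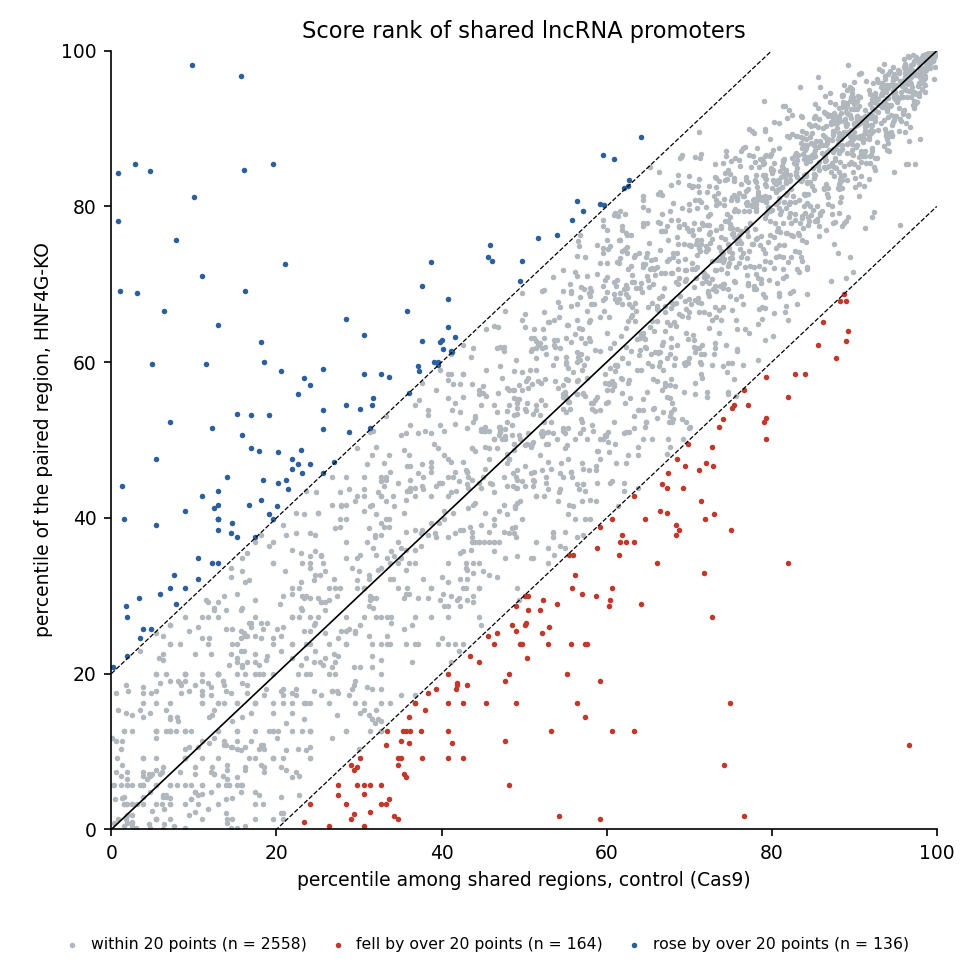
Percentile among shared regions in control (x axis) and of the paired region in HNF4G-KO (y axis) for the 2858 shared lncRNA promoters, 1 point per control region; the solid line is equality and the dashed lines lie 20 points from it. The 164 regions that fell by over 20 points are red and the 136 that rose are blue, the points close in on the line at high ranks, and the 6 largest rises at the upper left are weak control regions paired with a wide HNF4G-KO region.

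The largest single changes were partly set by how the lists split a stretch of accessible DNA. LINC02700 (chr11:94638713-94640238) had a control region of 1526 bp at percentile 97.4, while the HNF4G-KO list held 2 regions over it, of 771 bp at 15.1 and of 768 bp at 84.5, and the wider overlap gave a change of -85.8 points among shared regions, from rank percentile 96.6 to 10.8. EGOT (chr3:4751599-4752665), on the other strand within the calcium channel gene ITPR1, fell from 82.5 to 3.05 by the wider overlap, with a second HNF4G-KO region at 66.8. TACR3-AS1 (chr4:103546527-103548001) had a control region at 80.6 and 3 HNF4G-KO regions over it, and the highest of these stood at 30.7. The 6 largest rises, led by ENSG00000257391 from percentile 22.6 to 98.4 and LINC02396 from 3.24 to 85.9, were each a weak control region that shared a wide HNF4G-KO region with a stronger control region, at percentiles of 82.6 to 98.9.

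Regions that overlapped a single region of the other list in both directions are not split into several regions, though the paired regions can still differ in width. This restriction was chosen after the values had been seen. Of 2652 such lncRNA promoters, 151 (5.69%) fell and 105 (3.96%) rose by over 20 points. No share over all regions under this restriction is available here, so these counts say nothing particular to lncRNA promoters. The largest fall was at ENSG00000255375 (chr11:32136825-32137673), which carries the AP-1 match shown above and went from percentile 81.2 to 21.4. Its HNF4G-KO region (chr11:32137335-32137603, 269 bp) was narrower and did not reach that match. ENSG00000224099 (chr2:195447287-195447873) went from 69.3 to 2.35. CAVIN2-AS1 went from 70.4 to 17.3, CASC15 (chr6:22236615-22237229) from 86.5 to 39.99 and PAPPA-AS2 from 79.5 to 33.2. The largest rises were at ENSG00000286607 (chr14:91263909-91264622) from 17.9 to 57.0 and LINC02028 (chr3:194051909-194052113), whose nearest coding start site is that of the Notch target HES1, from 4.70 to 49.3. MIR17HG (chr13:91348371-91349208), the host of an oncogenic microRNA cluster, went from 26.2 to 56.2 and ZKSCAN7-AS1 from 44.5 to 69.0.

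Antisense and overlapping transcripts had 8.58% of 268 shared regions fall and 2.61% rise by over 20 points, and LINC genes 7.11% and 4.74% of 591. Over all shared regions 6.89% fell and 6.23% rose by over 20 points. MicroRNA hosts had 7.69% fall and 17.9% rise of 39, which are only 3 and 7 regions. These class counts were not limited to regions that overlapped a single region in both directions. Of 19 shared regions at genes with an SNHG symbol, 3 moved down, 0 fell by over 20 points and 2 rose, with a median change of 5.27 points. SNHG15 went from percentile 92.1 to 95.8 and SNHG11 from 92.2 to 94.5, whereas SNHG21 went from 97.8 to 93.7 and SNHG25 from 97.1 to 90.6.

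Consensus sequences of the transcription factor families were searched on both strands of the start-site window, the TATA box on the strand of the gene only. A lncRNA start site lay inside the region for 1736 of 2858 shared lncRNA promoters and for 207 of 657 control-only ones. A window can thus hold DNA outside the region, so shared and control-only shares below describe windows and not equal stretches of accessible DNA. AP-1 (TGACTCA, which is TGAGTCA on the other strand), the site of the FOS and JUN factors, was in 12.1% of control lncRNA promoters (11.1 to 13.3, 427 windows), against 5.71% of protein-coding promoters and 5.81% of windows at all annotated lncRNA 5′ ends. It was in 13.1% of shared lncRNA promoters (11.9 to 14.4) and in 8.07% of control-only ones (6.22 to 10.4). Among protein-coding promoters it was in 5.59% of shared and 6.55% of control-only ones. The forkhead consensus (TGTTTAC) was in 5.61% of lncRNA and 2.91% of protein-coding promoters, against 4.27% of all lncRNA 5′ ends. The GATA consensus (AGATAAG) was in 3.08% of shared and 5.18% of control-only lncRNA promoters. Protein-coding promoters had the same order, with 1.50% of shared and 2.61% of control-only ones. The ETS consensus (CCGGAAGT), common in CpG islands, was in 1.34% of lncRNA and 4.68% of protein-coding promoters. Among lncRNA promoters it was in 1.57% of shared and 0.304% of control-only ones (2 of 657 windows). Among protein-coding promoters it was in 5.15% of shared and 1.27% of control-only ones. TEAD (ACATTCCA) was in 1.99% of lncRNA promoters and 0.822% of protein-coding ones, RUNX (TGTGGTTT) in 2.33% and 1.204%, and the TATA box (TATAAA) in 6.86% and 4.48%. At all annotated lncRNA 5′ ends the shares were 3.44% for GATA, 1.63% for ETS, 1.92% for TEAD and 1.89% for RUNX, and the TATA box was more frequent there than in accessible lncRNA promoters, at 9.18% (8.78 to 9.60).

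The HNF4 consensus (CAAAGTCCA) was rare in lncRNA start-site windows. It was in 16 of 3515 control windows (0.455%, 0.280 to 0.738), against 0.409% of protein-coding promoters and 0.366% of all lncRNA 5′ ends. Of these 16 regions 2 were control-only (12.5%, 3.50 to 36.02), against 18.7% of those without it, and 5 of the 14 shared ones moved down in rank. Over the whole region the consensus was in 55 lncRNA promoters (1.56%), of which 9.09% were control-only (3.95 to 19.6). ENSG00000288974, the window with a match 60182 bp from FOXA2, went from percentile 98.7 to 96.6, and LINC02453 from 90.7 to 87.4. MANCR, a lncRNA described in breast cancer, stood at 68.0 in control and 76.2 in HNF4G-KO.

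A list of 60 cancer-associated lncRNAs, written from memory, had 56 members in the annotation, and 33 of them had 75 lncRNA promoter regions in control. Of these regions 16 were control-only (21.3%, 13.6 to 31.9), near the 25.0% of all control regions. Of 63 regions in HNF4G-KO 4 were KO-only (6.35%, 2.50 to 15.2), near the 6.76% of all HNF4G-KO regions, at MIR31HG, MIR100HG and SAMMSON. Of the 59 shared regions 4 fell and 6 rose by over 20 points, beside 6.89% and 6.23% of all shared regions, with a median change of 2.29 points. Without the limits on distance to coding genes, 49 of the 56 had a region at some start site in control.

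NORAD and MALAT1, abundant lncRNAs of many cell types, were accessible in both lists. NEAT1, another member of the list, had 1 lncRNA promoter region in control and 0 regions near its start sites in HNF4G-KO. NORAD, which binds Pumilio proteins, stood at percentile 86.3 in control and 92.2 in HNF4G-KO and MALAT1 of nuclear speckles at 69.6 and 77.2. Among lncRNAs described in carcinomas, CRNDE stood at 98.7 and 95.6, LUCAT1 at 95.2 and 92.0 at its stronger region, UCA1 at 85.0 and 85.8, and LINC00460 at 84.8 and 78.7. CRNDE, UCA1 and LINC00460 each had 2 lncRNA promoter regions in control and 1 in HNF4G-KO, and the control value is that of 1 region. LINC01133 stood at 91.0 and 76.7 with a change of -13.9 points, and PCAT1 at 91.2 and 71.1 with a change of -20.4 points. CASC15 had 4 regions in control, of which 1 was control-only at 48.4 and the other 3 went from 53.4 to 33.2, from 68.1 to 29.5 and from 86.5 to 39.99, with changes of -11.4, -33.9 and -47.8 points among shared regions.

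MicroRNA hosts of the list moved unevenly. MIR31HG had regions at 63.6, 36.9 and 41.8 in control that stood at 78.3, 13.0 and 40.8 in HNF4G-KO, with changes of 24.2, -11.6 and 9.66 points among shared regions. The 4 regions of MIR100HG in control had changes of -23.3, 20.1, 6.19 and 9.03 points, the first from percentile 56.0 to 24.0 and the second from 71.8 to 84.4. MIR210HG, the host of a microRNA induced by hypoxia, stood at 71.9 and 85.0, and MIR155HG at 64.6 and 68.6. MIR210HG had 2 regions in control and 1 in HNF4G-KO, and its control value is that of 1 region. The stronger region of CDKN2B-AS1, at the locus of cell cycle inhibitors, stood at 83.0 and 80.1, with a change of 0.469 points among shared regions. The imprinted MEG3 stood at 30.2 and 15.8 and FENDRR, a neighbor of FOXF1, at 17.9 and 19.4, whereas HAGLR at the HOXD cluster was control-only at 20.2.

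LncRNA promoters whose nearest coding start site belonged to 1 of 32 lineage transcription factor genes formed the second list. The control list held 30 such regions at 20 lncRNA genes near 12 of these coding genes, with 4 control-only (13.3%, 5.31 to 29.7, an interval that holds the 25.0% of all control regions), and the HNF4G-KO list held 27 with 0 KO-only (interval up to 12.5%, beside 6.76% of all HNF4G-KO regions). The median change of the 26 shared regions was -2.21 points, with 1 falling and 2 rising by over 20 points, beside 6.89% and 6.23% of all shared regions.

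CASC9, whose nearest coding start site is that of HNF4G itself, had 2 regions, at percentiles 97.3 and 81.4 in control and 97.5 and 79.5 in HNF4G-KO, and the second of these had a change of 1.94 points among shared regions. HNF4A-AS1, within the HNF4A gene on the other strand, stood at 65.7 and 52.1 with a change of -7.46 points. Near FOXA2, a pioneer factor of endoderm, the regions of ENSG00000204684 stood at 97.4, 60.7 and 36.9 in control and 99.4, 58.2 and 21.4 in HNF4G-KO, with changes of 2.82, 5.83 and -4.51 points among shared regions. Those of ENSG00000283072 stood at 77.9 and 70.6 in control and 65.8 and 61.1 in HNF4G-KO, with changes of -8.52 and -3.92 points, and LINC00261 was control-only at 2.66. Near SOX9, a ductal factor, LINC01152 stood at 84.5 and 54.9 with a change of -29.2 points and SOX9-AS1 was control-only at 42.6. Near KLF4, LINC01509 stood at 58.6 in control and 51.4 in HNF4G-KO with a change of 1.03 points among shared regions, and near RUNX3 ENSG00000261025 stood at 71.5 and 48.8 with a change of -18.6 points. Near CDX2, an intestinal factor, LINC00543 stood at 73.3 and 82.0 with a change of 15.5 points. PVT1, beside MYC, had its strongest region at 93.1 and 88.4 with a change of -3.76 points, 1 control-only region at 8.12, and a region at 33.9 and 66.3 with a change of 44.5 points. The last was not among the regions that overlapped a single region in both directions, so its change can depend on how the lists split accessible DNA.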

How the data were processed

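Omni-ATAC-seq of HPAF-II control (Cas9) and HNF4G-KO cells, 4 replicates each, was represented by 1 deposited region list per group, each region with a score assigned by the authors on a scale that is not stated. The submitters' processing notes name Bowtie2 2.2.6, MACS2 2.1.1.20160309 and DiffBind, and builds hg38 and mm10, with no role. For ATAC-seq, the peak caller with its threshold, any shift of reads and the handling of replicates are not given in the sources used here. Per-replicate reads were not analysed here, so depth is unknown, and the 2 KPC mouse lists were not used.

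Regions were set against every transcript start in GENCODE release 44 (hg38, 1-based coordinates) with Python 3.11.15, numpy 2.4.6, pandas 2.3.3 and scipy 1.17.1, and figures were drawn with matplotlib 3.10.9. A region was shared with at least 1 bp of overlap, and scores were ranked within their list. No p-value was computed, because each group is 1 list, and the functions were tested on simulated data. Sequences were read from the hg38 genome for the start site nearest to the region center. Repeat content was not computed, because the genome used is in capitals throughout. Named were the 10 highest genes per list, the 10 control-only and 8 KO-only regions of highest score, the 6 largest falls and rises, the 8 genes with most regions, members of the gene lists, and the 6 strongest genes with the HNF4 consensus. The windows shown were picked as examples of CpG content, of the AP-1 consensus and of the HNF4 consensus, and not by a fixed rule. Named genes with an SNHG symbol and pairs of 1 region each were added after values were seen, as were the CpG classes and the count of 1 region per gene. Members and lists were chosen with earlier results of these data known. Alternatives covered overlap, score threshold, list size, promoter and coding distance, start-site choice and chromosomes. Some items are not reported here.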

Additional observations from a re-analysis of the deposited data

How the results depend on the processing

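No paired analysis was possible because each group is 1 list that stands for its 4 replicates, and for the same reason no replicate could be left out. Of 106 alternative values over 24 settings, 62 stayed within the counting error of the reported value, 41 moved past it and 3 changed sign, and the cause was not tested. The control-only share of lncRNA promoters (18.7%) was 22.3% with at least 50% of the region covered, 16.0% with regions within 500 bp counted as shared, 15.3% in the upper 50% of each list and 9.09% in lists of equal size. It was 10.7% where the region overlapped the start site, 16.3% within 500 bp of it, 21.4% within 2 kb, 16.3% with the 5′ end of each gene, 17.3% with basic transcripts and 16.7% with 1 region per gene. The KO-only share (4.60%) was 5.94% with 50% covered, 3.41% within 500 bp, 2.65% in the upper 50%, 7.46% in lists of equal size, 2.12% over the start site and 5.48% within 2 kb of it. The control-only difference from protein-coding promoters (6.41 points) was 3.61 in lists of equal size, 8.33 with gene 5′ ends, 8.12 with basic transcripts, 3.53 within score deciles, 11.9 per gene, 0.939 within CpG class and 1.32 within CpG class and decile. The KO-only difference (0.821 points) turned to -0.907 in the upper 50%, -0.448 within deciles and -0.0745 within CpG class and decile, and was 2.67 per gene, 0.0679 within CpG class, 0.157 in lists of equal size and 0.349 over the start site, the last 3 with intervals that hold 0. The median percentile (61.7) was 57.2 in the upper 50%, 60.2 in lists of equal size, 74.3 over the start site, 65.5 within 500 bp, 57.6 within 2 kb, 64.1 with gene 5′ ends and 67.2 per gene. The difference from other distal regions (-9.03 points) was -11.2 in the upper 50%, -6.46 in lists of equal size, -17.1 over the start site, -11.4 within 500 bp, -6.34 within 2 kb and -1.13 within deciles. CpG-rich windows made up 28.9% where the region overlapped the start site, and the HNF4 consensus was in 1.74% of windows with any base at 1 position and in 1.56% of whole regions. Unknown depth limits each count of regions in 1 list.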
